A study of Mus musculus with 11 samples.

Results

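Mitochondrial cell death genes were followed across 3 tissues of the mouse embryo. The list held 9 genes, and 8 of them (Aifm1, Diablo, Bak1, Bcl2, Bcl2l1, Mcl1, Apaf1 and Casp9) had a single-symbol probe with values, 1 probe each, among 19938 genes so measured. No probe was matched to Bax, which is not analysed here. Aifm1 was chosen by its ratios in neuroepithelium and neural crest, which were already known, and the other genes were chosen for their place in the same pathway. The pattern of Aifm1 over the tissues is therefore given as a description, with no test.

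Cells were taken by laser from frozen sections of E8.5 embryos of CD1, an outbred mouse strain, with no treatment and no genetic change named for any group. The 11 Affymetrix mouse ST arrays fell into 3 of neuroepithelium, the wall of the early neural tube, 5 of neural crest, the migratory cells that leave its dorsal edge, and 3 of paraxial mesoderm, the tissue beside the tube that forms somites. Which embryo each array came from, and how many cells, is not in the labels. The p-values therefore speak for array-to-array spread alone, which may be technical, and come out too low if one embryo supplied several arrays. In captured tissue, fewer cells of a type and less RNA per cell cannot be told apart.

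Each deposited value is a linear ratio of an array to a reference value of the probe itself. A ratio of 1 means that an array sat at the reference, a gene silent everywhere and a gene equally active everywhere both sit near 1, and levels cannot be compared between genes. A ratio of at least 4 is called high here and a ratio 4-fold or more below the reference is called low. Files of this kind hold no read depth, and the number of arrays limits the precision.

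Mitochondria hold proteins that kill the cell once they escape. BAX and BAK1 are the pore formers of the outer membrane, and BCL2, BCL2L1 (BCL-XL) and MCL1 hold them in check. Released cytochrome c assembles APAF1 into the apoptosome, which activates caspase 9, while released DIABLO (SMAC) relieves the caspases of their inhibitors. AIFM1 (AIF) is a flavoprotein of the inner membrane that supports assembly of the respiratory chain and, when freed, moves to the nucleus and takes part in caspase-independent DNA breakdown. Around neural tube closure, cell death is a normal part of shaping the neural folds and the crest.

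Aifm1 starts next to Rab33a, a small GTPase gene transcribed from the other strand, and the bases between both starts are shown because the pair share this stretch while their ratios differed. It lies at chrX:48513564-48513662 of GRCm38.p6 (99 bases, 69.7% G and C), outside every gene of the RefSeq table, and is printed 5′ to 3′ on the minus strand, on which Aifm1 is read. Capitals mark a match to the core of the NRF1 motif (GCATGCGC), a factor of nuclear genes for mitochondrial proteins, and a CCAAT box.

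Aifm1 and Rab33a, between the starts: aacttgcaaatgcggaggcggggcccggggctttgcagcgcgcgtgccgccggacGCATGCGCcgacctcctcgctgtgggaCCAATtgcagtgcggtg

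Both strands were searched, and the motif letters did not overlap. NRF1 core letters were found in 1.48% and CCAAT in 18.7% of 32851 RefSeq promoter windows cut to the same 99 bases before the start. A GC box, searched as GGGCGG and present in 24.6% of those windows, did not occur in these letters. Nor did a TATA box, searched as TATAAA and present in 5.52% of the windows. The motifs were chosen after the sequence was seen, and a match is a description of letters alone.

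Aifm1 (probe 10604405) was high on every neuroepithelium array. Its ratios there were 5.07, 10.5 and 15.4. On the neural crest arrays they ranged from 0.488 to 1, with values of 0.488, 1, 0.513, 0.493 and 0.913. Paraxial mesoderm gave 3.61, 4.70 and 0.965. The neuroepithelium arrays thus lay above all other arrays, the crest arrays lay at or below the reference, and the mesoderm was mixed, with arrays 1 and 2 near the lowest neuroepithelium array and array 3 within the range of the crest.

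On the log2 scale the group means of Aifm1 were 3.23 ± 0.81 (SD, n = 3) in neuroepithelium, 1.35 ± 1.22 (n = 3) in paraxial mesoderm and -0.63 ± 0.52 (n = 5) in neural crest. Neuroepithelium exceeded neural crest by 3.86 (SE 0.57), a 14.5-fold difference of ratios, and paraxial mesoderm by 1.88 (SE 0.64). Neural crest lay 1.98 below paraxial mesoderm (difference -1.98, SE 0.57), and those groups overlapped. The difference between neuroepithelium and neural crest ran from 3.50 to 4.30 when each array was left out in turn. Between neuroepithelium and paraxial mesoderm it ran from 1.18, without mesoderm array 3, to 2.32. A high ratio on all 3 neuroepithelium arrays with a ratio at or below 1 on all 5 crest arrays occurred for 5 of 21789 probes (0.0229%), Aifm1 among them. This shape chose the gene, and nothing is read from that share.

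**Figure D1:**
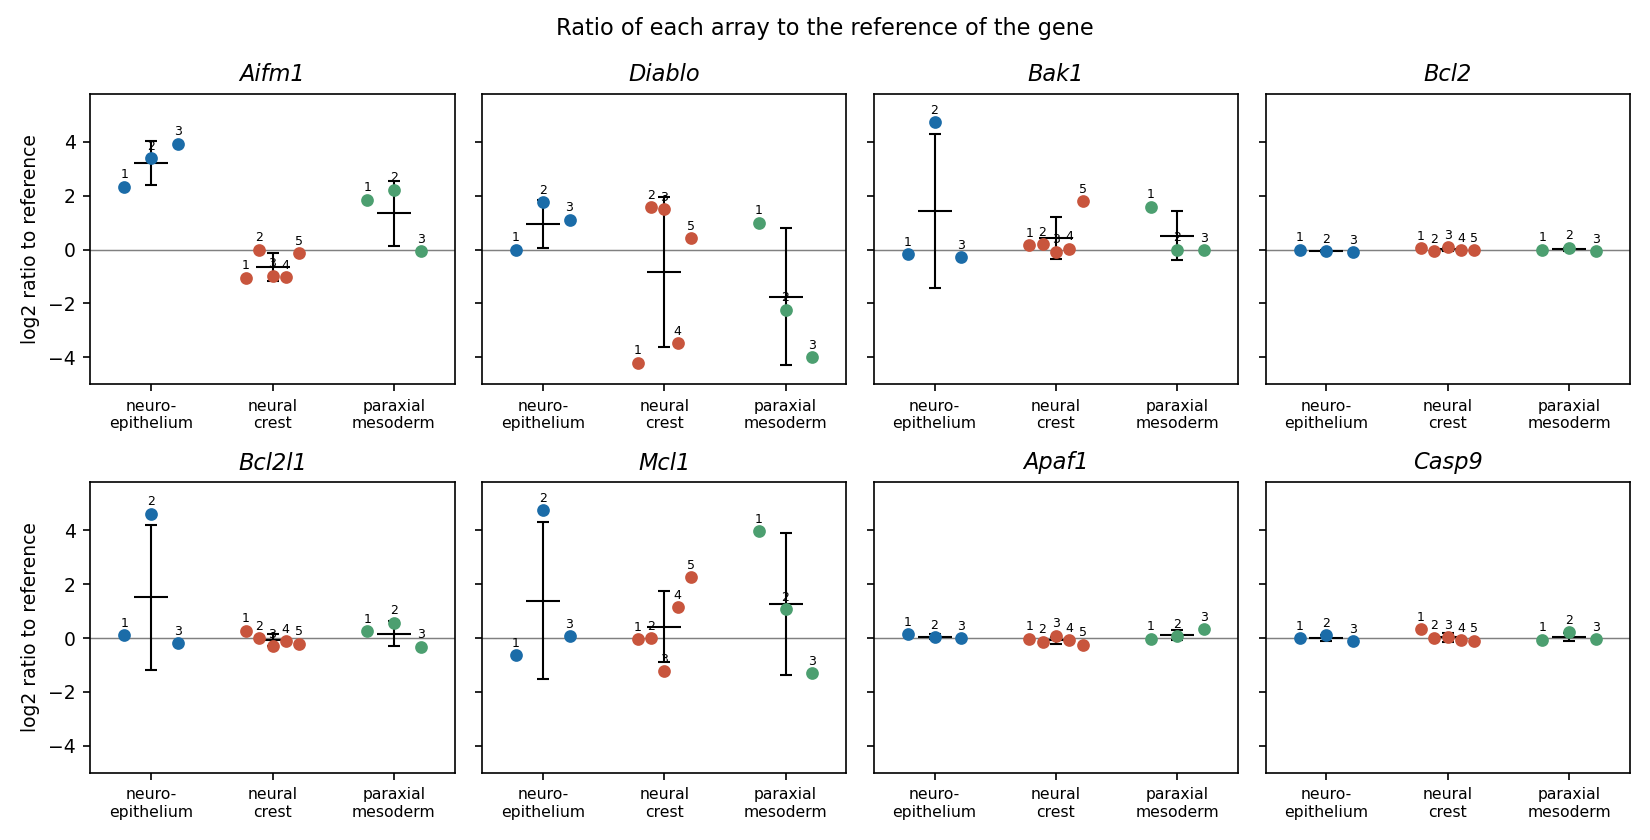
Log2 ratio to the reference (y axis) of the 8 measured genes in neuroepithelium (n = 3), neural crest (n = 5) and paraxial mesoderm (n = 3). Points are arrays with their numbers, the horizontal bar is the mean and the whiskers are 1 SD. Aifm1 is high on all 3 neuroepithelium arrays, Bak1, Bcl2l1 and Mcl1 on neuroepithelium array 2, and Bcl2, Apaf1 and Casp9 stay near 0.

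Some epithelial markers were high on the 4 arrays where Aifm1 was high. Epcam and Cldn7 were high on all 3 neuroepithelium arrays, and Cldn4, Cldn6 and Cldn7 on mesoderm array 2, while Cdh1 stayed near 1 on all arrays. The summed ratio of 7 epithelial genes (Epcam, Cdh1, Cldn4, Cldn6, Cldn7, Crb3 and Grhl2) was 150.6 to 196 in neuroepithelium, 6.27 to 6.86 in neural crest and 6.08 to 167 in paraxial mesoderm, with 6 of 7, 0 of 7 and 3 of 7 genes high on some array. For 7 surface ectoderm genes the sums were 120 to 185, 6.38 to 44.6 and 5.83 to 192. Mesoderm array 2, where Aifm1 was 4.70, held the highest mesoderm sum of both lists. Mesoderm array 1, where Aifm1 was 3.61, held the lowest of both, and it was the array on which 7 of 7 measured primitive red cell markers were high (summed ratio 661, against 6.66 to 7.69 on the crest arrays). The part of these cells in the ratios of Aifm1 was not tested.

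Of the markers of the labelled tissues, only some of the crest markers were high on their own arrays. Of 9 measured crest markers, 5 were high on at least 1 crest array, 2 on a neuroepithelium array and 0 on a mesoderm array. Among these 5, Snai1 was high on all 5 crest arrays (41.2 to 82.1) and at 0.800 to 1.17 on the arrays of other tissues. The others were high on only some crest arrays. None of 8 neural markers was high in neuroepithelium, though 1 of them, Nes, was high on crest array 3 (8.48). None of 9 paraxial mesoderm markers was high on any array, all of these 9 staying within 2-fold of their reference. In ratios this does not show that the markers were silent. Over all probes, 71.9% stayed within 2-fold on all arrays and 21.0% were high on at least 1, so flat ratios are the usual case. The 8 endothelial markers also stayed within 2-fold everywhere, and Foxa2 and Nog, of 6 gut endoderm and notochord genes, were high on mesoderm array 3.

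Aifm1 was chosen by its ratios in neuroepithelium and neural crest, so setting the other 7 genes against it is a description. In 0 of these 7 did the neuroepithelium and neural crest arrays fail to overlap, where 2.95% of all 21789 probes did not overlap. With 7 genes a count of 0 is near that share. In limma, 0 of the 7 passed between neuroepithelium and neural crest (adjusted p = 1.00 for each, 0 at an unadjusted p under 0.05), where 0.0275% of all probes passed. Over all 21789 probes, 604 had an unadjusted p under 0.05. The median log2 difference of the 7 genes, neuroepithelium minus neural crest, was 0.96, against 0.00 over all probes. This median was the difference of Mcl1, which 1 array set, as described below.

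Among the pore formers only Bak1 was measured (probe 10449303). Its ratios were 0.894, 26.8 and 0.820 in neuroepithelium, 1.13, 1.15, 0.951, 1.03 and 3.49 in neural crest, and 3.01, 1 and 0.989 in paraxial mesoderm. It was high on neuroepithelium array 2 alone, moderately raised on crest array 5 and mesoderm array 1, and at the reference on the remaining 8 arrays, so the tissues overlapped. The log2 difference between neuroepithelium and neural crest was 1.005 (SE 1.12), and it was -0.65 without neuroepithelium array 2.

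Bcl2l1, which encodes the survival protein BCL-XL (probe 10488655), had the same single high array. Its ratios were 1.08, 24.7 and 0.876 in neuroepithelium, 0.818 to 1.21 in neural crest, and 1.19, 1.49 and 0.802 in paraxial mesoderm. Away from neuroepithelium array 2 no array was as much as 2-fold from the reference. Its log2 difference, neuroepithelium minus neural crest, was 1.58 (SE 0.96), and 0.03 without that array.

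Mcl1, a short-lived survival protein gene (probe 10494306), was the most variable survival gene. Neuroepithelium gave 0.642, 26.9 and 1.05. Neural crest gave 0.978, 1, 0.425, 2.24 and 4.80, and paraxial mesoderm gave 15.7, 2.12 and 0.407. It was high on 1 array of each tissue, neuroepithelium array 2, crest array 5 and mesoderm array 1, the same 3 arrays on which Bak1 stood highest. The log2 difference between neuroepithelium and neural crest was 0.96 (SE 1.52), and -0.72 without neuroepithelium array 2.

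Bcl2, the founding survival gene of the family (probe 10357043), stayed at 0.942 to 1.07 on all 11 arrays. Its largest difference between tissue means was that of neuroepithelium minus neural crest, log2 -0.06 (SE 0.05). Of the 3 survival genes, then, Bcl2 was flat, Bcl2l1 departed on 1 array, and Mcl1 varied within every tissue.

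On neuroepithelium array 2, 3 of the 7 genes other than Aifm1 were high (Bak1, Bcl2l1 and Mcl1), where 2.85% of all 21789 probes were. Aifm1 was high there too, but its neuroepithelium ratios chose it. The array was singled out after its values were seen. Its median ratio was 1.0012, and it was not among the 8 arrays over which the reference behaves as a median. With a high ratio set at 2-fold the count with Aifm1 was 5, Diablo being added, and at 8-fold it was 4. No other array had more than 1 of the 8 genes high, and the share of all probes that were high on an array ran from 1.83% on mesoderm array 3 to 7.88% on mesoderm array 1. Neuroepithelium array 2 was also the array with the most surface ectoderm markers high, 4 of 7 (Krt8, Krt18, Grhl3 and Wnt6) against 2 of 7 on each of the other neuroepithelium arrays. Whether surface ectoderm cells were captured there, and bear on Bak1, Bcl2l1 and Mcl1, was not tested.

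Diablo, the released inhibitor of caspase inhibitors (probe 10533633), departed from its reference mainly downward. Its ratios were 1, 3.38 and 2.17 in neuroepithelium, 0.0547, 2.99, 2.86, 0.0908 and 1.34 in neural crest, and 2.00, 0.212 and 0.0624 in paraxial mesoderm. It was low on crest arrays 1 and 4 and mesoderm arrays 2 and 3, and at or above the reference on the other 7 arrays. No neuroepithelium array was low, yet 3 crest arrays and 1 mesoderm array overlapped them.

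In log2 terms Diablo averaged 0.96 ± 0.89 (SD, n = 3), -0.83 ± 2.79 (n = 5) and -1.75 ± 2.54 (n = 3). The difference of neuroepithelium from neural crest was 1.79 (SE 1.66), and from paraxial mesoderm 2.71 (SE 1.86), with limma adjusted p = 1.00 for both. A low ratio on at least 1 array was found for 5.30% of all probes and, among the 8 genes, for Diablo alone. On the 4 arrays where Diablo was low, the share of all probes that were low was 2.77% (crest array 1), 1.67% (crest array 4), 1.16% (mesoderm array 2) and 2.5% (mesoderm array 3). It was 0.34% to 0.808% on 6 of the other 7 arrays and 2.19% on neuroepithelium array 2, where Diablo was 3.38. The part of this array-wide share in the low ratios of Diablo was not tested.

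The apoptosome genes were flat. Apaf1 (probe 10371846), the scaffold, ranged from 0.843 to 1.26, and Casp9 (probe 10510034), the initiator caspase bound to it, from 0.925 to 1.25. With Bcl2 they made 3 of the 7 genes other than Aifm1 within 2-fold of their reference on all 11 arrays, where 71.9% of all probes were. High on at least 1 array were 3 of the 7 genes other than Aifm1, against 21.0% of probes. The ratios cannot tell whether these 3 genes were equally active in all tissues or not detected in any.

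Apaf1 differed by log2 0.14 (SE 0.10) between neuroepithelium and neural crest and by -0.21 (SE 0.10) between neural crest and paraxial mesoderm. Casp9 differed by -0.04 (SE 0.11) and -0.01 (SE 0.11). None of these passed in limma (adjusted p = 1.00), and none had an unadjusted p under 0.05.

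**Figure D2:**
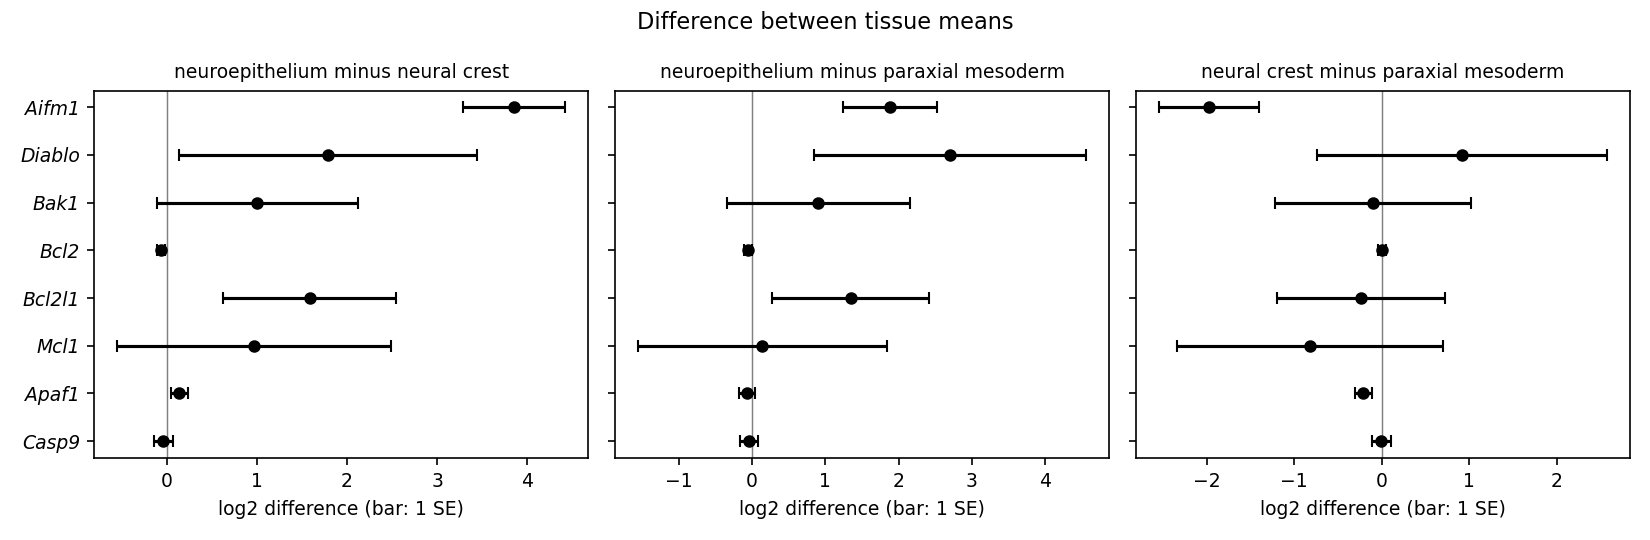
Log2 difference between tissue means (x axis) for the 8 measured genes (y axis), 1 panel for each pair of tissues, with bars of 1 SE from the fit over all 11 arrays. Aifm1, shown as a description, differs by 3.86 in the first panel, and the bars of Bcl2, Apaf1 and Casp9 are narrow because their arrays hardly varied.

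Against paraxial mesoderm the picture was similar. Between neuroepithelium and paraxial mesoderm 0 of the 7 genes other than Aifm1 passed in limma (adjusted p = 1 for each, 0 at an unadjusted p under 0.05, 0.0138% of all probes passing), and 0 had groups that did not overlap, against 6.86% of probes. Bcl2l1 differed by 1.35 (SE 1.07) and Bak1 by 0.91 (SE 1.25), and these became -0.21 and -0.75 without neuroepithelium array 2. Mcl1 differed by 0.14 (SE 1.70), and by -1.54 without that array. The median of the 7 differences was 0.14, again that of Mcl1, against 0.00 over all probes. Of all 21789 probes, 525 had an unadjusted p under 0.05 in this comparison.

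Between neural crest and paraxial mesoderm 0 of the 7 passed in limma (adjusted p = 1.00 for each, 0 at an unadjusted p under 0.05, 0.00918% of all probes passing). None had groups that did not overlap, against 2.63% of probes. An unadjusted p under 0.05 was found for 624 of all 21789 probes. Diablo had the largest difference, 0.92 (SE 1.66), followed by Mcl1 at -0.82 (SE 1.52), which was 0.54 without mesoderm array 1. Diablo turned to -0.21 without mesoderm array 3. The median of the 7 differences was -0.10, that of Bak1, against 0.00 over all probes. The comparisons share arrays, so their values are not independent of each other.

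Rab33a (probe 10599530), the divergent neighbour, stayed at 0.963 to 1.03 on all 11 arrays. Elf4, the nearest gene on the other side with a probe, stayed within 2-fold of its reference, at 0.938 to 1.03 for probe 10604393 and 0.862 to 1.35 for probe 10604403. The high ratios of Aifm1 on the neuroepithelium arrays were thus not seen at either neighbouring gene. Flat ratios do not tell whether these neighbours were detected at all.

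The probes most like Aifm1 were ranked by the mean absolute difference of their log2 ratios from those of Aifm1 over the 11 arrays, a description that shares its arrays with the choice of the gene. The nearest was Ctdnep1 (0.79), a nuclear envelope phosphatase, which was high on neuroepithelium arrays 2 (17.6) and 3 (10.3) but not 1 (0.944). Anxa7, a calcium-dependent membrane-binding protein, came next (0.79), with 16.01, 13.5 and 6.30 in neuroepithelium and 0.760 to 1 in neural crest.

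Spint2 (0.92), an inhibitor of epithelial serine proteases, was high on neuroepithelium arrays 1 (22.6) and 3 (24.3) and on mesoderm arrays 1 (5.85) and 2 (8.14). Akirin1 (0.95) was high on neuroepithelium arrays 2 and 3 (12.5 and 19.7) and also on mesoderm arrays 1 and 2 (8.32 and 12.3). Mfsd10 (0.95), a membrane transporter gene, was at 3.78, 12.7 and 4.31 in neuroepithelium and within 2-fold elsewhere. Spint2 and Akirin1 were thus high on mesoderm arrays 1 and 2 but each at or below the reference on 1 neuroepithelium array, whereas Anxa7 and Mfsd10 were raised on all 3 neuroepithelium arrays and not high in mesoderm.

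Of the cell death genes themselves, Bcl2l1 lay closest to Aifm1, at 1.28 (position 229 of 21788 probes), and Bak1 next at 1.45 (position 815). Casp9 (1.54), Apaf1 (1.56) and Bcl2 (1.56) lay near the median of all probes, 1.56, where flat probes fall. Mcl1 (1.69) and Diablo (2.39) lay farther from Aifm1 than that. Both Bcl2l1 and Bak1 were high on neuroepithelium array 2 alone, and Bak1 was also at 3.01 on mesoderm array 1, where Aifm1 was at 3.61. On neuroepithelium arrays 1 and 3 Aifm1 was at 5.07 and 15.4. Bcl2l1 was there at 1.08 and 0.876, and Bak1 at 0.894 and 0.820.

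**Figure D3:**
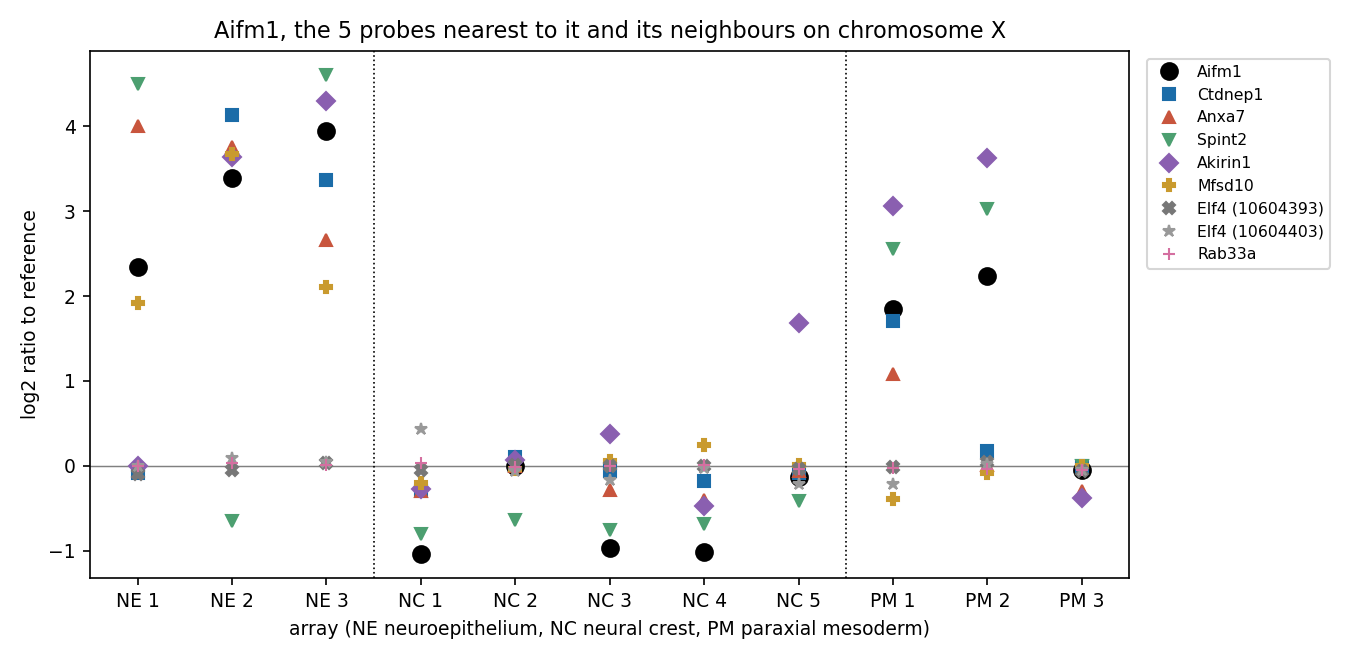
Log2 ratio to the reference (y axis) on each of the 11 arrays (x axis) for Aifm1, the 5 probes nearest to it and the genes on either side of it, with 2 probes for Elf4. Rab33a and Elf4 stay near 0 on every array, while each of the 5 nearest probes is high on 2 or 3 neuroepithelium arrays.

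The wider pathway was examined through 43 further genes (59 probes), of 49 listed. In limma 0 of 43 were higher and 0 lower in neuroepithelium than in neural crest (adjusted p = 1.00 for each, 0.0275% of all probes passing), with 1 gene at an unadjusted p under 0.05. That gene was Bcl2l2 (BCL-W), another survival protein of the family, at 0.894 to 1 in neuroepithelium and 1.00 to 1.08 in neural crest. It was the only gene of the 43 whose groups did not overlap there, where 2.95% of all probes did not, and its log2 difference was -0.12 (SE 0.05). Over all 21789 probes, 604 had an unadjusted p under 0.05 there, so 1 of the 43 genes is near that share.

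Neuroepithelium and paraxial mesoderm separated 0 of 43 genes in either direction by limma (lowest adjusted p = 1, 0 at an unadjusted p under 0.05), with 0.0138% of all probes passing. The groups of 3 genes (Aifm3, Pgam5 and Dffb) did not overlap, a share near the 6.86% of all probes. Neural crest and paraxial mesoderm likewise separated 0 of 43 (lowest adjusted p = 1.00, 1 at an unadjusted p under 0.05, Bcl2l2 again), with 0.00918% of all probes passing. The groups of 2 genes, Aifm3 and Bcl2l2, did not overlap, where 2.63% of all probes did not. An unadjusted p under 0.05 was reached by 525 of all 21789 probes between neuroepithelium and paraxial mesoderm. Between neural crest and paraxial mesoderm it was reached by 624. The median log2 difference of the 59 probes was 0.01, -0.01 and -0.02 in the 3 comparisons, against 0.00 over all probes in each.

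None of 8 AIF partners and relatives separated neuroepithelium from neural crest, where 2.95% of all probes did, and with 8 genes this is near the share. The pathway genes described from here on were chosen after their values were seen. Chchd4, the intermembrane import protein through which AIFM1 acts on the respiratory chain, was high on neuroepithelium array 3 (41.7), on crest arrays 1, 2, 3 and 5 (76.0, 54.5, 56.1 and 85.2) and on mesoderm array 1 (57.4), and at 0.733 to 0.971 on the other 5 arrays. It was thus high on 4 of 5 crest arrays, where Aifm1 lay at or below its reference. Aifm2, a relative that protects membrane lipids from oxidation, stayed at 0.969 to 1.09, and Aifm3 at 0.924 to 1.65.

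Ppia (cyclophilin A), a partner of freed AIFM1, stayed within 0.877 to 1.15 over 7 probes and Mif within 0.869 to 1.09 over 3 probes. Both genes have processed copies in the genome, so their probes are not independent measurements. Parp1, whose overactivity triggers AIFM1 release, ran from 0.581 to 3.21.

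Of 8 genes for released mitochondrial proteins and for channels 2 stayed within 2-fold on all arrays: Opa1, and Cycs, the cytochrome c gene, at each of its 3 probes. By probe, 5 of 13 did, against 71.9% of all probes. Htra2, a serine protease that cleaves caspase inhibitors, was high on neuroepithelium array 1 (12.5), on crest arrays 2, 3 and 5 (36.1, 41.4 and 26.3) and on mesoderm array 1 (31.0), and near 1 on the others. Vdac1, a channel of the outer membrane, ranged from 0.115 on crest array 4 to 20.2 on mesoderm array 2.

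Of 11 genes for BH3-only proteins, which trigger the pore formers, and for Bok 5 stayed within 2-fold on all arrays, 5 left that range on 1 array and 1, Bnip3, on more. The 5 flat genes were Bbc3 (PUMA), Pmaip1 (NOXA), Bcl2l11 (BIM), Bmf and Hrk. By probe, 5 of 13 stayed within 2-fold, against 71.9% of all probes. Bik was high on neuroepithelium array 1 alone (39.6) and Bid on crest array 4 alone (33.6). Bnip3, a mitophagy receptor induced by low oxygen, was high at both probes on crest arrays 3 (25.8 and 23.7) and 4 (10.1 and 5.73) and on mesoderm array 3 (34.3 and 27.6).

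Of 5 further genes for caspases and the caspase-activated nuclease 1 stayed within 2-fold on all arrays (Dffa), and of 5 inhibitors of apoptosis 2 did (Birc3 and Birc6). By probe it was 1 of 5 and 3 of 6, against 71.9% of all probes. Casp8, the initiator of the death receptor route, was high on neuroepithelium array 1 alone (50.7), and Xiap, the inhibitor that DIABLO displaces, on mesoderm array 2 alone (54.2). Casp6 was high on neuroepithelium array 3 (34.8) and mesoderm arrays 1 (14.1) and 2 (86.6). Birc5 (survivin), which also serves chromosome segregation, was low on crest array 1 (0.0264) and within 2-fold of its reference on every other array.

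In all, 16 of the 43 genes were high on at least 1 array, 5 were low on at least 1, and 20 stayed within 2-fold at every probe. By probe, 17 of 59 were high on at least 1 array against 21.0% of all probes, 8 were low against 5.30%, and 32 stayed within 2-fold against 71.9%. The number of these genes high on an array ran from 0 on neuroepithelium array 2 to 9 on mesoderm array 1. On those arrays 2.85% and 7.88% of all probes were high. With 43 genes, a count of 0 is near the former share, so nothing is read from it. Neuroepithelium array 2, with 3 of the 7 genes of the first list other than Aifm1 high, thus had none of these 43 high. Mesoderm array 1, with 9 of them high, had Mcl1 alone of the first list, while Aifm1 (3.61) and Bak1 (3.01) lay just under the cut there.

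**Figure D4:**
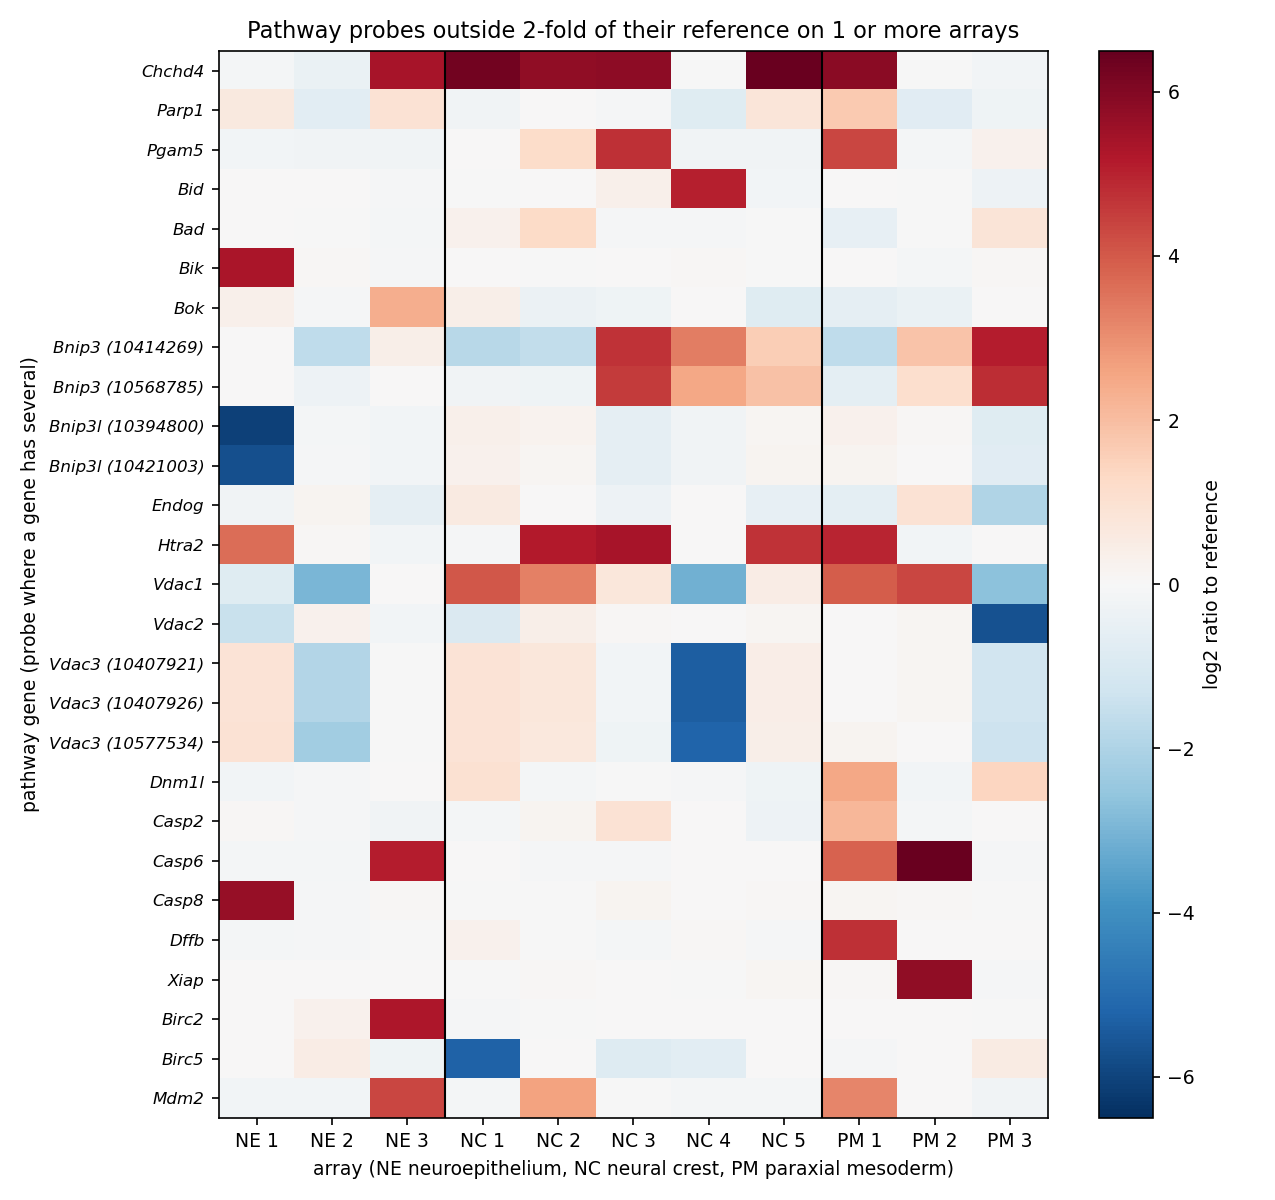
Heat map of the log2 ratio to the reference (colour scale) for pathway probes that left the 2-fold range on at least 1 array (rows) over the 11 arrays (columns), with black lines between tissues. High and low values fall on single arrays or subsets of a tissue, as for Bik and Casp8 on neuroepithelium array 1, and neuroepithelium array 2 shows no high value.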

How the data were processed

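The authors deposited a table of linear ratios, 1 column for each of 11 arrays, listing 35557 probes, 6701 of them without any value. Per the submitters' processing notes, RMA was used and mm9 was the build, with no version given. The step that made ratios, and their reference, is not stated there. Log2 values had been planned for, so log2 of the ratio was taken, with no pseudocount. On the 8 arrays with a median of 1, exactly 1 array was at 1 (within 1e-05) for 26141 probes. For all of these, 3 or 4 of the others lay below it, so the reference behaves as a median over those 8 arrays. Neuroepithelium array 2 (median 1.0012), crest array 3 (0.99065) and crest array 5 (1.0059) were outside that set. Ratios ran from 0.01 to 269.

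Of the 28856 measured probes, 21789 had 1 symbol in the platform annotation and were used, while 1621 had several and 5446 had none. Entrez identifiers matched a RefSeq table (GRCm38.p6, used for names, neighbours and the printed sequence) for 21698 of them and changed 0 symbols. Promoter windows from RefSeq matched all 9 genes, and only that of Aifm1 is printed.

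The log2 ratios were fitted with 3 group means over all 11 arrays with lmFit and eBayes in limma 3.58.1 under R 4.3.3, without an intensity trend, since ratios hold no intensity. P-values were two-sided and adjusted by the Benjamini-Hochberg method across all 21789 probes, with a threshold of 0.05. The fit was tried on simulated, normally spread data, where the check was that shifts put in came back on average. Such data lack the single-array departures seen here, so this does not show how many real differences would pass. The genes and lists were chosen with earlier results of these data known. The rule for named genes took all measured genes of the first list, pathway genes that passed or else separated neuroepithelium from neural crest, the 5 probes nearest to Aifm1 and its neighbour on each side. Other pathway genes were named after their values were seen. Alternatives changed the variance model, probe choice, scaling, low values, arrays fitted, replicate block and single arrays.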

Additional observations from a re-analysis of the deposited data

Results flagged for a closer look

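Among the 5 neural crest arrays, a single array stood far from the other 4, by its gap relative to the whole range of log2 ratios (Dixon's test), for 13 of 75 probes examined. About 1 in 20 groups would be singled out by chance if values were normally spread, but 21.0% of all probes were high on at least 1 array. The share singled out over all probes was not examined, so nothing is read from the count. Several of these probes share a gene or an array. Of the cell death genes first listed, Bak1 alone was among them, with 3.49 on crest array 5 against 0.951 to 1.15 on the other crest arrays.

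On crest array 4, Chchd4 was lowest at 0.969, against 54.5 to 85.2 on the other crest arrays, Bid was highest at 33.6 against 0.880 to 1.28, and all 3 Vdac3 probes were lowest, at 0.0248, 0.0247 and 0.0274 against 0.827 to 1.87. The Vdac3 probes gave nearly the same values and are not independent. On crest array 1, Birc5 was lowest at 0.0264 against 0.555 to 1.03, while Hspa1a (1.48), Dnm1l (1.98) and Ppp1r13b (1.12) were highest by smaller amounts. Mdm2, the ubiquitin ligase that restrains p53, was highest on crest array 2, at 6.20 against 0.902 to 0.978, as was Bad at 2.40. Pgam5 was highest on crest array 3 at 26.5. What sets these arrays apart was not tested.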

How the results depend on the processing

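The fit was repeated under 23 alternatives. In none of them did any of the 7 genes other than Aifm1, or any of the 43 pathway genes, pass in limma (lowest adjusted p 0.877 and 0.733). The number of probes passing over all genes was less steady. Between neuroepithelium and neural crest it was 6, with 2 under an intensity trend, 10 with only those groups fitted and 5 to 20 with 1 array left out, the most without neuroepithelium array 2. Between neuroepithelium and paraxial mesoderm it was 3, and 3 to 40 with 1 array left out, the most without mesoderm array 3. Between neural crest and paraxial mesoderm it was 2, with 0 under the trend, 1 under quantile normalization and 1 to 45 with 1 array left out, the most again without mesoderm array 3. The cause was not tested.

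Same-numbered arrays did not deviate together (correlations of deviations from -0.146 to 0.0525). With so few arrays a tissue this cannot show whether same-numbered arrays share an embryo, which the labels do not give. With the replicate number as a block 6, 2 and 3 probes passed, and Casp9 turned to 0.081 between neural crest and paraxial mesoderm. Quantile normalization turned Mcl1 to -0.02 between neuroepithelium and paraxial mesoderm, and Bak1 to 0.031 and Bcl2 to -0.013 between neural crest and paraxial mesoderm, none of them past the threshold.

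Leaving out single arrays turned further small differences. For neuroepithelium minus neural crest the ranges were -0.65 to 1.86 for Bak1, -0.72 to 1.98 for Mcl1 and -0.095 to 0.031 for Casp9. For neuroepithelium minus paraxial mesoderm they were -0.75 to 1.77 for Bak1, -0.21 to 2.20 for Bcl2l1, -1.54 to 1.502 for Mcl1, -0.147 to 0.031 for Apaf1 and -0.101 to 0.042 for Casp9. For neural crest minus paraxial mesoderm they were -0.21 to 2.29 for Diablo, -0.44 to 0.44 for Bak1, -0.022 to 0.035 for Bcl2, -2.10 to 0.54 for Mcl1 and -0.078 to 0.083 for Casp9. The fold at which a gene counts as high was varied after seeing the data. With 3 to 5 arrays a tissue, differences of the size seen for Diablo, Bak1 and Mcl1 were within the spread between arrays.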

Other observations

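Probes of the same gene sometimes disagreed. On mesoderm array 3, Vdac2 was at 0.0199 at probe 10413138 and at 1.07 at probe 10531286. On neuroepithelium array 3, Birc2, an inhibitor of apoptosis, was at 38.1 at probe 10590791 and at 0.860 at probe 10590799. Both probes of Bnip3l, a mitophagy receptor of red cell maturation, were low on neuroepithelium array 1 (0.0150 and 0.0193) and at 0.583 to 1.26 on all other arrays. Each of the 8 genes of the first list had 1 probe only.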
